A study of Mus musculus with 6 samples.

Results

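The 9 genes described here, Lyn, Fgr, Syk, Btk, Lcp2, Vav1, Ptpn6, Ptprc and Inpp5d, were chosen by name as intracellular signaling genes of leukocytes, out of 35122 genes in the table of estimated counts. They encode 4 tyrosine kinases, 3 phosphatases, 1 adaptor (Lcp2) and 1 exchange factor (Vav1), so that 2 of the 9 are neither kinase nor phosphatase. RNA came from the floating adipocyte layer of collagenase-digested epididymal fat of male C57BL/6 mice fed chow. The 3 control mice were PU.1 fl/fl littermates, in which loxP sites flank exon 5 of both Spi1 alleles and the exon is still present. The 3 aPU.1KO mice were AdipoqCre_PU.1 fl/fl, carrying the same floxed alleles and Cre driven by the adiponectin promoter and enhancer, which is active in adipocytes. The labels put the mice of both groups at 10 to 11 months of age. Each library came from a separate mouse. The numbers 1, 2 and 3 of the mice only name them and pair no control with an aPU.1KO mouse.

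Most of these genes are known from blood cells. When an activating receptor of a macrophage, mast cell or lymphocyte is engaged, kinases of the Src family such as Lyn and Fgr phosphorylate its immunoreceptor tyrosine-based activation motifs (ITAMs), and Syk docks on them. Syk then phosphorylates adaptors such as Lcp2 (SLP protein), which assemble Vav1 and the Tec family kinase Btk, leading to calcium release and actin remodelling. Inhibitory receptors carry a related motif, the ITIM, which recruits the phosphatases Ptpn6 (SHP family) and Inpp5d (SHIP family), while the transmembrane phosphatase Ptprc, the common leukocyte antigen, sets the activity of the Src kinases. PU.1, the product of Spi1, is an ETS-family factor of myeloid and B cells that binds purine-rich DNA with a GGAA core, and GAGGAAGT is a form of its element.

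Upstream sequences are shown for the genes whose start sites carry GAGGAA with little or no annotated exon in the window, since PU.1 is the factor deleted here. RefSeq windows of 250 bases before a start (GRCm38.p6) were found for 8 of the 9 genes, 10 windows in all, and no window was used for Lyn. Capitals mark GAGGAA, each sequence reads 5′ to 3′ on the gene's strand, and both strands were searched. The windows below lie at chr17:57278850-57279099 on the plus strand (Vav1), chr1:87620062-87620311 on the plus strand (Inpp5d) and chr1:138175306-138175555 on the minus strand (Ptprc).
Vav1: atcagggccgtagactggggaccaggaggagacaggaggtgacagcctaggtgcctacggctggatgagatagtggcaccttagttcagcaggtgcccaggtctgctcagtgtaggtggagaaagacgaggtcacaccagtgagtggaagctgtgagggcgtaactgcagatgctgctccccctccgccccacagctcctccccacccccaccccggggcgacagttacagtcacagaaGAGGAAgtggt
Inpp5d: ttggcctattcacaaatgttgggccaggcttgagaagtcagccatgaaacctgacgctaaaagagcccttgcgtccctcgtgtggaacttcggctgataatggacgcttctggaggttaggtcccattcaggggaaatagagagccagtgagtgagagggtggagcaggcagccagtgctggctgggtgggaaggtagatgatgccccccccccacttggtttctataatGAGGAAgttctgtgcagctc
Ptprc: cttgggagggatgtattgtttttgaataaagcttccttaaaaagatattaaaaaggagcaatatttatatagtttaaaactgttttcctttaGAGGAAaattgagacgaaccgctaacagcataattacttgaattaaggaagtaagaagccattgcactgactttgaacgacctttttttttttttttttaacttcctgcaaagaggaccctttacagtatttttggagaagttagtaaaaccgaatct
The capitals begin 11 bases before the start in Vav1, 20 bases before it in Inpp5d and 158 bases before it in Ptprc, and in Vav1 and Inpp5d the letters that follow complete GAGGAAGT. A window of Syk held GAGGAA 9 bases before its start. GAGGAA was present in 4 of the 10 windows and in 23.3% of 32851 windows of all genes, and GAGGAAGT, which contains it, in 2 of the 10 windows and in 2.44% of all. GGAA, which both contain, was in 9 of the 10 windows but also in 93.4% of all windows. A match of letters is a description of the window and was not tested as a binding site.

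Estimated counts summed to between 20550252 and 24310144 in 5 of the libraries and to 69283842 in control mouse 1. Spi1 (chromosome 2, 91082390 to 91115756), counted over all its exons and not only the floxed one, stood at 24.3, 6.34 and 26.7 CPM, counts per 1000000 counts of the scaled library, in control mice 1, 2 and 3 and at 3.20, 1.22 and 4.17 CPM in the aPU.1KO mice. Its log2 fold change, aPU.1KO over control, was -2.75 with a standard error of 0.64 (adjusted p = 0.0788, edgeR's quasi-likelihood test, Benjamini-Hochberg adjusted across 13925 genes). All 9 adipocyte markers of a fixed list were tested, and they summed to between 26525 and 28978 CPM in control mice and between 32130 and 38634 CPM in aPU.1KO mice. Control mouse 2 stood apart from the other controls in Spi1, and it also had the lowest control value in 9 of the 9 signaling genes, against 43.7% of all genes tested. The values of the 9 genes without it follow below.

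All 9 genes passed the filter on low counts, and the fitted log2 fold change of each was below 0, between -2.65 (Btk) and -0.72 (Lyn) with a median of -2.16, against a median of 0.01 over all genes tested. In 8 of the 9, every aPU.1KO mouse was below every control mouse, which 15.5% of all genes tested also showed, and Vav1 was the exception. None of the 9 passed an adjusted p under 0.05 in edgeR's test, which called 0.18% of genes lower and 0.237% in either direction, and their adjusted p-values ran from 0.0753 to 0.109. At an unadjusted p under 0.01 in the same edgeR test, 8 of the 9 passed as lower in aPU.1KO adipocytes (background 6.43%), and Fgr did not. That count dropped to 4 when control mouse 1 or 3 was left out, to 1, 3 and 5 when aPU.1KO mouse 1, 2 or 3 was left out, and to 4 with limma-voom. Over all genes, 1367 passed that threshold in either direction in the main test. Without control mouse 1 or 3 there were 437 and 573, and without aPU.1KO mouse 1, 2 or 3 there were 722, 1082 and 1436. With limma-voom there were 1231. DESeq2, the test named in the study's methods, called 9 of 9 lower at an adjusted p under 0.05 (background 7.48% of 16684 genes), with adjusted p-values between 4.26e-06 and 0.0219. Without control mouse 2, edgeR's test also called 9 of 9 lower (background 6.93% of 14306 genes) with adjusted p-values between 0.002 and 0.0453, whereas without control mouse 1 they were 0.313 to 0.401. Without control mouse 2 the log2 fold changes were -2.99 for Btk, -2.72 for Ptpn6, -2.60 for Ptprc, -2.54 for Vav1, -2.53 for Syk and Inpp5d, -2.10 for Fgr, -1.88 for Lcp2 and -0.83 for Lyn, each further below 0 than with it. In these bulk samples, fewer cells of a type and less RNA per cell cannot be told apart.

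**Figure D1:**
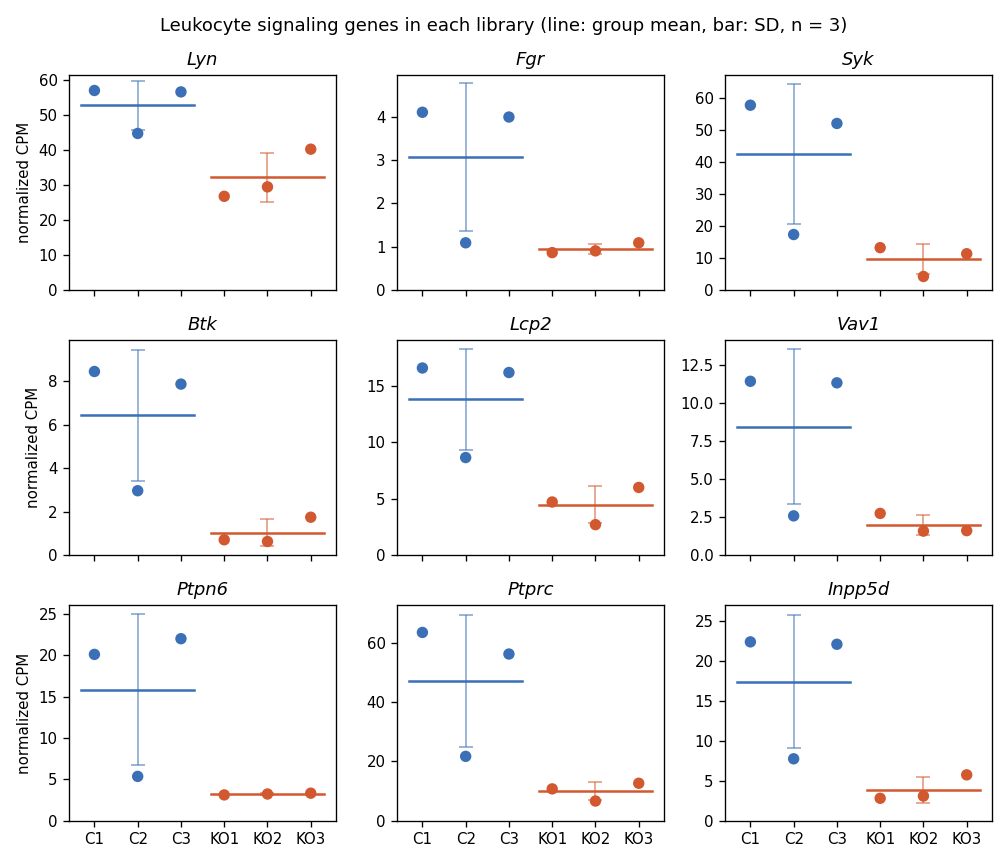
Normalized CPM (vertical axes, from 0, each with its own scale) of the 9 genes in control mice 1 to 3 (C1 to C3, blue) and aPU.1KO mice 1 to 3 (KO1 to KO3, orange); lines are group means and bars 1 SD, n = 3. Control mouse 2 is the lowest control in every panel and lies near the aPU.1KO mice for Fgr, Vav1 and Ptpn6, while for Lyn it lies between the other controls and the aPU.1KO mice.

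Among the 9 genes, the Src family kinase Lyn had the log2 fold change nearest 0, and Fgr, of the same family, had the lowest level per length. Lyn (ENSMUSG00000042228; chromosome 4, 3678115 to 3813122, plus strand, GRCm38) had 57.1, 44.8 and 56.7 CPM in control mice and 26.8, 29.5 and 40.3 CPM in aPU.1KO mice. The groups did not overlap, and control mouse 2 was at 78.8% of the mean of the other controls, a higher share than in any other of the 9 genes. Its log2 fold change was -0.72 with a standard error of 0.18 (edgeR adjusted p = 0.0854, DESeq2 adjusted p = 0.00602), the smallest of the 9, and 11.4% of all genes tested had a lower one. Reads of a pseudogene 98.8% identical to Lyn over 1050 bases (Gm11787) could be confused with it, but that gene held at most 1 count in any library. Fgr (ENSMUSG00000028874; chromosome 4, 132974095 to 133001910, plus strand), a Src kinase typical of myeloid cells, was at 4.11, 1.09 and 4.00 CPM in control mice and at 0.863, 0.903 and 1.09 CPM in aPU.1KO mice. Control mouse 2 and aPU.1KO mouse 3 were nearly equal, and the aPU.1KO values rest on 17, 20 and 23 counts. Fgr's log2 fold change was -1.70 (standard error 0.51, edgeR adjusted p = 0.109, DESeq2 adjusted p = 0.0219).

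Syk and Btk act in sequence below the receptor, and Btk had the lowest log2 fold change of the 9 genes with all mice included. Syk (ENSMUSG00000021457; chromosome 13, 52583173 to 52648792, plus strand) was measured at 57.7, 17.3 and 52.0 CPM in control mice and at 13.2, 4.20 and 11.3 CPM in aPU.1KO mice. Control mouse 2 was nearer to the aPU.1KO mice than to its own group, at 31.5% of the mean of the other controls, but no values overlapped. For Syk the log2 fold change was -2.16 with a standard error of 0.56 (95% interval -3.48 to -0.83, edgeR adjusted p = 0.0902, DESeq2 adjusted p = 0.000573). Btk (ENSMUSG00000031264; chromosome X, 134542336 to 134583570, minus strand), the kinase that activates phospholipase C gamma, had 8.46, 2.97 and 7.88 CPM in control mice and 0.711, 0.632 and 1.75 CPM in aPU.1KO mice. The groups were separate, and aPU.1KO mouse 3 was above the other aPU.1KO mice, which had 14 counts each. The group means of 6.44 ± 3.02 and 1.03 ± 0.625 CPM (SD, n = 3) differed 6.26-fold, and Btk's log2 fold change was -2.65 with a standard error of 0.54 (edgeR adjusted p = 0.0764, DESeq2 adjusted p = 6.03e-05). Without aPU.1KO mouse 3 it was -3.26, and without aPU.1KO mouse 1 it was -2.45, next to -2.47 for Syk.

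The adaptor and the exchange factor were both lower on average in aPU.1KO adipocytes, with unequal separation between the groups. Lcp2 (ENSMUSG00000002699; chromosome 11, 34046920 to 34092295, plus strand), a scaffold for signaling complexes, was at 16.6, 8.66 and 16.2 CPM in control mice and at 4.72, 2.71 and 6.01 CPM in aPU.1KO mice, without overlap. Its log2 fold change was -1.63 with a standard error of 0.36 (edgeR adjusted p = 0.0783, DESeq2 adjusted p = 0.000364). A gene on the opposite strand, 4930469K13Rik, shares 282 bases of exon with Lcp2 but held 20 counts in all libraries together. Vav1 (ENSMUSG00000034116; chromosome 17, 57279100 to 57328031, plus strand), an exchange factor of blood cells, had 11.4, 2.58 and 11.3 CPM in control mice and 2.74, 1.58 and 1.61 CPM in aPU.1KO mice. Control mouse 2 lay below aPU.1KO mouse 1, at 22.7% of the mean of the other controls, the lowest such share of the 9 genes. Vav1's log2 fold change was -2.11 with a standard error of 0.58 (edgeR adjusted p = 0.0977, DESeq2 adjusted p = 0.00263), and -2.54 without control mouse 2 (edgeR adjusted p = 0.00698).

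The 3 phosphatases had similar log2 fold changes. Ptprc (ENSMUSG00000026395; chromosome 1, 138062861 to 138175708, minus strand), present on all nucleated blood cells, was at 63.6, 21.7 and 56.3 CPM in control mice and at 10.7, 6.60 and 12.6 CPM in aPU.1KO mice. No values overlapped, and its log2 fold change of -2.25 (standard error 0.43) had the lowest adjusted p of the 9 genes in both tests, 0.0753 in edgeR and 4.26e-06 in DESeq2. Ptpn6 (ENSMUSG00000004266; chromosome 6, 124720707 to 124738714, minus strand) had 20.1, 5.34 and 22.0 CPM in control mice and 3.10, 3.21 and 3.31 CPM in aPU.1KO mice. The aPU.1KO mice were nearly identical in Ptpn6, while the controls spanned from 5.34 to 22.0 CPM. Its log2 fold change was -2.31 with a standard error of 0.51 (edgeR adjusted p = 0.0783, DESeq2 adjusted p = 6.5e-05). An antisense gene, Gm20531, shares 195 bases of exon with Ptpn6 and was not analysed here. Inpp5d (ENSMUSG00000026288; chromosome 1, 87620312 to 87720507, plus strand), a lipid phosphatase that removes the product of PI 3-kinase, had 22.4, 7.74 and 22.1 CPM in control mice and 2.79, 3.07 and 5.73 CPM in aPU.1KO mice. The groups were separate, with a log2 fold change of -2.18 and a standard error of 0.47 (edgeR adjusted p = 0.0783, DESeq2 adjusted p = 7.7e-05).

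Levels of different genes were compared as CPM per kilobase of the principal transcript. In control adipocytes the order was Lyn (15.6 ± 2.06, SD, n = 3), Ptprc (10.0 ± 4.76), Syk (7.89 ± 4.08), Ptpn6 (7.13 ± 4.11), Lcp2 (3.79 ± 1.22), Inpp5d (3.53 ± 1.70), Vav1 (2.85 ± 1.72), Btk (2.54 ± 1.19) and Fgr (0.913 ± 0.509). The same order held for the aPU.1KO means, from 9.51 ± 2.12 (Lyn) and 2.12 (Ptprc) down to 0.406 (Btk) and 0.283 (Fgr) CPM per kilobase. Lyn ranked highest in all 6 libraries. Neighbours from Ptprc to Btk in the control order differed by less than the SD of the higher one. Across the 6 libraries, the log2 CPM of each gene had a Pearson correlation between 0.922 (Lyn) and 0.994 (Ptprc) with the mean of the other 8. These points share the group difference and the low value of control mouse 2, so the correlation is a description.

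The log2 fold changes of the paralogs ranged from values near 0 to values as low as those of the 9 genes. Ptpn11, the broadly expressed relative of Ptpn6, was at 351, 406 and 324 CPM in control mice and at 367, 339 and 394 CPM in aPU.1KO mice, with a log2 fold change of 0.02 (95% interval -0.24 to 0.29). Inppl1, the relative of Inpp5d, was at 79.7, 80.1 and 79.1 CPM in control mice and at 85.4, 84.1 and 75.1 CPM in aPU.1KO mice, a log2 fold change of 0.03 (-0.14 to 0.21). In both genes the groups overlapped, and control mouse 2 was not below the other controls. The log2 fold change was 0.19 for Src (-0.08 to 0.47), 0.04 for Yes1 (-0.29 to 0.37) and 0.10 for Vav2 (-0.25 to 0.45), all widely expressed genes. Negative log2 fold changes were found for Blnk (-2.66), an adaptor related to Lcp2, for Ptprj (-1.22), a receptor phosphatase, for Fyn (-1.07) and for Vav3 (-0.55, -1.13 to 0.03), none with an edgeR adjusted p under 0.05. Without control mouse 2, Blnk (-3.10, edgeR adjusted p = 0.00329), Ptprj (-1.43, edgeR adjusted p = 0.0189) and Fyn (-1.11, edgeR adjusted p = 0.0307) passed that threshold, and Ptpn11, Inppl1, Src, Yes1, Vav2 and Vav3 did not. The Tec family kinases Tec (-0.67, -2.19 to 0.84) and Bmx (-0.06, -2.01 to 1.88) had wide intervals. Zap70, the counterpart of Syk in T cells, was at most 0.158 CPM and was not tested.

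**Figure D2:**
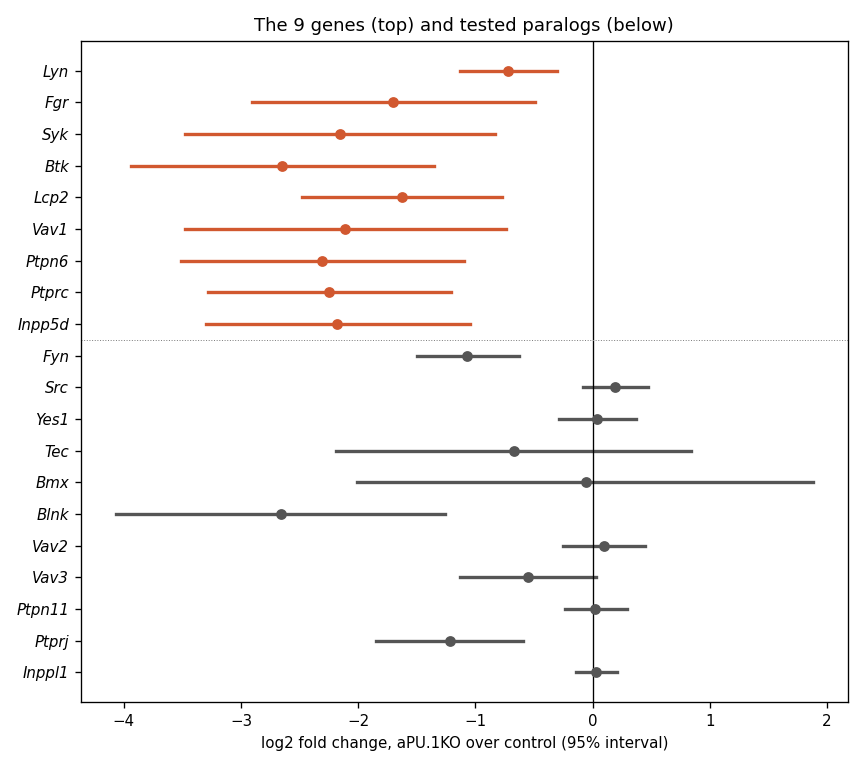
Log2 fold change, aPU.1KO over control, from edgeR (horizontal axis, points) with its 95% interval (lines, not adjusted for the number of genes) for the 9 genes (orange, above the dotted line) and tested paralogs (grey). The intervals of all 9 genes lie below 0, while those of Src, Yes1, Tec, Bmx, Vav2, Vav3, Ptpn11 and Inppl1 include 0.

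Within a library, the log2 ratio of a gene to its paralog depends on scaling only through the prior count of 2 added before taking logs. That addition matters most for genes with low counts. The log2 ratio of Ptpn6 to Ptpn11 was -4.12, -6.23 and -3.87 in control mice and -6.86, -6.70 and -6.86 in aPU.1KO mice, a difference of -2.06 without overlap. Inpp5d relative to Inppl1 differed by -2.11, Ptprc relative to Ptprj by -0.92, Lyn relative to Src by -0.92 and Fgr relative to Src by -1.60, each also without overlap. Lyn relative to Fyn was instead higher in every aPU.1KO mouse, by 0.35. These were the 6 of 17 pairs compared without overlap, each with an exact permutation p of 0.1 (two-sided), the smallest that 3 against 3 mice allow, and 0.283 after Benjamini-Hochberg adjustment over the pairs. Vav1 relative to Vav2 differed by -1.91, but control mouse 2 at -3.78 was below aPU.1KO mouse 1 at -3.35 (exact permutation p = 0.2).

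The wider pathway was followed in 7 lists holding 110 other genes, of which 95 were tested. Their median log2 fold change was -1.22, with 84 below 0 and 11 above. At an unadjusted p under 0.01, 47 passed as lower and 0 as higher (background 6.43% lower and 3.38% higher), while none passed an adjusted p under 0.05 in edgeR and DESeq2 called 55 lower and 0 higher. Without control mouse 2, edgeR's test called 56 lower and 0 higher at the adjusted threshold. The 47 at the unadjusted threshold dropped to 11 with limma-voom, to 19 and 15 when control mouse 1 or 3 was left out, and to 13, 16 and 15 when aPU.1KO mouse 1, 2 or 3 was left out. Over all genes, in either direction, 1231 passed that threshold with limma-voom against 1367 in the main test. There were 437 and 573 without control mouse 1 or 3, and 722, 1082 and 1436 without aPU.1KO mouse 1, 2 or 3. ITAM adaptors and the receptors that carry an ITAM or signal through such an adaptor had the lowest median of the lists, -2.38 over 16 tested genes, 9 of them passing as lower at the unadjusted threshold. They included Clec7a (-3.28), the beta-glucan receptor, and Trem2 (-3.24), a lipid-sensing receptor of macrophages, both without overlap between the groups, and Clec4d (-3.27), a C-type lectin for which control mouse 2 at 0.656 CPM was below aPU.1KO mouse 1 at 0.965 CPM. The least negative of that list were the lymphocyte genes Cd247 (-0.59) and Cd79a (-0.68). Receptors with an ITIM had a median of -2.22 over 17 tested genes, of which 11 passed as lower. Milr1 (-2.81), an inhibitory receptor of mast cells and myeloid cells, Cd72 (-2.53) and Clec12a (-2.52) were lowest among them, and Siglece (-0.45) and the platelet and endothelial molecule Pecam1 (-0.53) were nearest 0.

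Downstream of the receptors the lists were more mixed. Of 21 tested effectors (median -1.40), 11 passed as lower at the unadjusted threshold, with Nckap1l (-2.77), a blood-cell subunit of the actin-regulating WAVE complex, Dock2 (-2.54) and the GTPase Rac2 (-2.34) lowest. The widely expressed effectors Plcg1 (0.13) and Vav2 (0.10) were highest. Among 16 tested adaptors (median -1.0), 8 passed as lower. Lat2 (-2.67), Blnk (-2.66) and Fyb (-2.54) were the lowest adaptors, and Sla2 (0.76) and Gab3 (0.01) the highest. The 16 tested phosphatases and ubiquitin ligases that limit signaling had a median of -0.53, and 6 of them passed as lower. Of these, Ptpn7 (-2.54), Ptpn22 (-2.24) and Ptpro (-2.23) were lowest, while Inppl1 (0.03), found in most cell types, was among the highest. Of 6 tested Src kinases and regulators (median -0.30) 2 passed as lower, among them Fyn (-1.07), whereas Csk (-0.36), which restrains Src kinases, Yes1 (0.04) and Src (0.19) did not. Syk and Tec family relatives had 0 of 3 passing, with Tec at -0.67, Bmx at -0.06 and Txk at 0.51. Exons of Lat2, Cd72, Sla2 and Cd247 overlap genes on the opposite strand over 36.3%, 41.6%, 23.6% and 56.4% of their exon length, and whether counting used strand is not given in the sources used here.

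**Figure D3:**
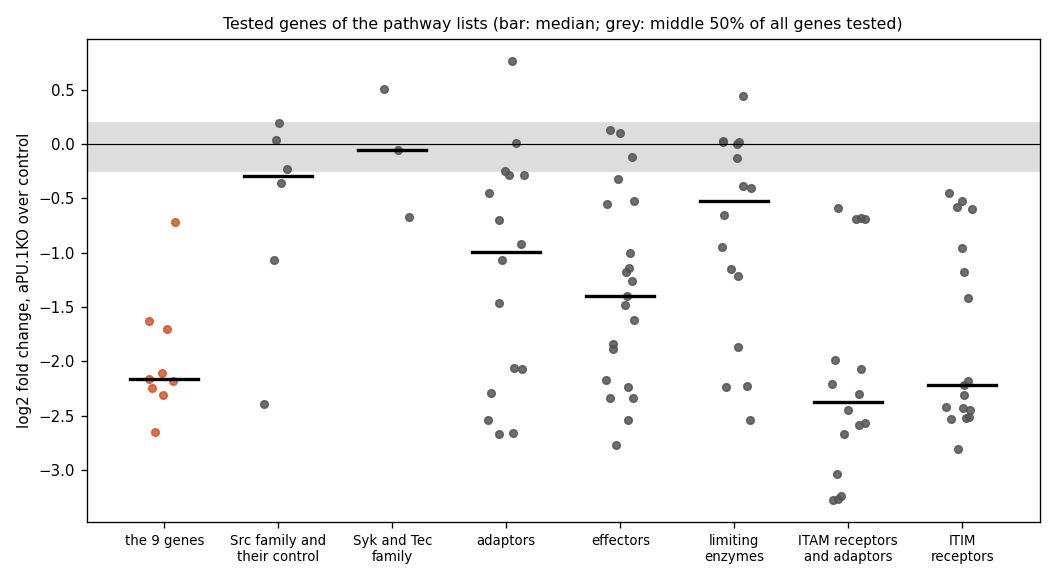
Log2 fold change, aPU.1KO over control (vertical axis), of every tested gene (points) in the 9 signaling genes (orange) and the 7 pathway lists (dark grey), with list medians as black bars and the middle 50% of all tested genes, -0.25 to 0.19, as a grey band. The medians run from -2.38 (ITAM receptors and adaptors) to -0.06 (Syk and Tec family).

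Markers of macrophages moved with the same libraries. The list of 13 macrophage markers summed to 1468, 484 and 1418 CPM in control mice and to 337, 269 and 316 CPM in aPU.1KO mice, so that control mouse 2 again lay between the groups. Of 12 tested markers, with a median log2 fold change of -1.90, 8 passed as lower at an unadjusted p under 0.01, and Mrc1 (-1.70, edgeR adjusted p = 0.0389) also at the adjusted threshold. Mrc1 did not pass it without control mouse 1 or 3 (edgeR adjusted p = 0.0939 and 0.181). Without control mouse 2, 9 of the markers were called lower at the adjusted threshold. The defining markers Adgre1, Cd68 and Csf1r were detected in every library, Csf1r at 140, 53.5 and 128 CPM in control mice and at 29.2, 23.4 and 34.7 CPM in aPU.1KO mice. Markers of resident macrophages did not all follow, since Cd163 (0.29) and Mertk (0.06) had log2 fold changes above 0, though Cd163 ran from 2.97 to 23.8 CPM within the control mice and its log2 fold change from -0.18 to 1.08 as each mouse was left out, the highest without control mouse 2, and that of Mertk ran from -0.08 to 0.22. None of the 13 was at 3 counts or fewer in every library.

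Relative to the macrophage marker sum, the groups overlapped for 8 of the 9 genes. The overlap of all tested genes on this scale was not computed, so the count only describes the 9. Lyz2 was the largest part of the sum in every library. It was at 635, 143 and 652 CPM in control mice and 134, 62.1 and 103 CPM in aPU.1KO mice. Mertk, also in the sum, did not fall with it. Its values were 46.3, 59.4 and 39.5 CPM in control mice and 43.3, 57.8 and 49.7 CPM in aPU.1KO mice. Per 100 CPM of markers, Syk was at 3.93, 3.57 and 3.67 CPM in control mice and at 3.92, 1.56 and 3.56 CPM in aPU.1KO mice. Inpp5d was at 1.53, 1.60 and 1.56 CPM in control mice and at 0.829, 1.14 and 1.81 CPM in aPU.1KO mice. On this scale control mouse 2 was still the lowest control for Syk, Fgr, Vav1 (0.780, 0.533 and 0.799 CPM in control mice) and Ptpn6 (1.37, 1.10 and 1.55 CPM). It was not the lowest control for Lyn, Lcp2, Inpp5d, Ptprc (4.33, 4.47 and 3.97 CPM in control mice) or Btk (0.577, 0.614 and 0.556 CPM). Btk was the gene without overlap, with 0.211, 0.235 and 0.553 CPM in aPU.1KO mice, though aPU.1KO mouse 3 was close to control mouse 3 at 0.556 CPM. Lyn went the other way, at 3.89, 9.26 and 4.00 CPM in control mice and 7.94, 11.0 and 12.7 CPM in aPU.1KO mice per 100 CPM of markers. Against Csf1r alone, every aPU.1KO mouse was lower for Btk and Ptprc and higher for Lyn, and 6 genes overlapped. The share of all tested genes that separate on the Csf1r scale was not computed either, so these counts also only describe the 9. Csf1r had a log2 fold change of -1.89, against -0.72 for Lyn and a median of 0.01 over all genes tested. A rise relative to Csf1r is therefore not particular to Lyn. The part of macrophage RNA in the lower levels of the 9 genes was not tested.

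**Figure D4:**
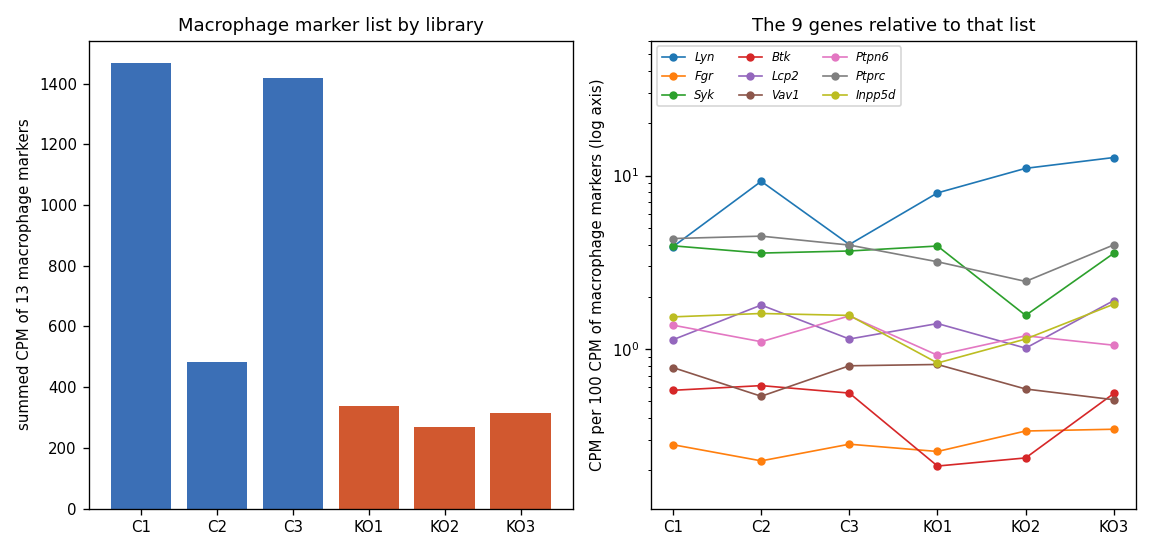
Left, summed CPM of the 13 macrophage markers (vertical axis, from 0) in each library, control mice blue and aPU.1KO mice orange. Right, CPM of each of the 9 genes per 100 CPM of those markers on a log axis: 8 of the 9 genes overlap between the groups (not computed for all genes), Btk is lowest in aPU.1KO mice 1 and 2, and Lyn is higher in control mouse 2 and the aPU.1KO mice than in control mice 1 and 3.

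Markers of the other leukocytes that use these genes were measured in the same libraries. T cell markers summed to between 5.25 and 7.29 CPM in control mice and between 2.08 and 3.50 CPM in aPU.1KO mice, and of 8 markers 5 were tested and 0 passed as lower at an unadjusted p under 0.01. Of 6 NK cell markers none passed the filter, with sums between 0.262 and 1.84 CPM in control mice and between 0.426 and 0.632 CPM in aPU.1KO mice. Neutrophil markers (3 of 8 tested, 0 passing) summed to between 22.2 and 38.9 CPM in control mice and between 12.4 and 19.5 CPM in aPU.1KO mice, and the defining markers Retnlg, Ly6g and Ngp had 3 counts or fewer in every library. Most of that sum was S100a8, at 23.9, 17.5 and 35.2 CPM in control mice and at 11.7, 9.94 and 16.7 CPM in aPU.1KO mice, without overlap. Its log2 fold change was -1.0 (edgeR adjusted p = 0.107, DESeq2 adjusted p = 0.016, edgeR adjusted p = 0.0481 without control mouse 2). Mast cell markers (3 of 6 tested, 0 passing) summed to between 18.1 and 21.7 CPM in control mice and between 8.43 and 14.9 CPM in aPU.1KO mice, with Ms4a2 at 3 counts or fewer throughout. Most of that sum was Kit (-0.59), and the mast cell proteases were lower on average with control mouse 2 the lowest control, as for the 9 genes. Mcpt4 had a log2 fold change of -1.98 (edgeR adjusted p = 0.156) and Cma1 of -2.26 (edgeR adjusted p = 0.165), while Tpsb2, which did not pass the filter, had one of -2.60 in DESeq2 (adjusted p = 0.0118). B cell markers (5 of 7 tested, 0 passing) summed to between 791 and 1243 CPM in control mice and between 697 and 838 CPM in aPU.1KO mice, mostly from the antibody heavy chain gene Ighm (log2 fold change -0.22), while Cd79a and Ms4a1 stayed at or below 1.66 CPM. The light chain gene Igkc was at 85, 10.2 and 173 CPM in control mice and at 15.8, 10.5 and 8.76 CPM in aPU.1KO mice, again with control mouse 2 lowest among controls. Its log2 fold change of -2.94 (edgeR adjusted p = 0.112, DESeq2 adjusted p = 0.0333, edgeR adjusted p = 0.007 without control mouse 2) was below that of each of the 9 genes. Dendritic cell markers (3 of 5 tested, 0 passing) summed to 18.1, 20.3 and 16.6 CPM in control mice and to 13.7, 18.0 and 18.2 CPM in aPU.1KO mice, with overlap. Adipose progenitor markers, which are not leukocyte genes, were also lower in the aPU.1KO mice, at 399, 323 and 716 CPM against 1005, 779 and 935 CPM in control mice, and 2 of 6 passed. The part of these cell types in the result was not tested.

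The genes whose pattern over the 6 libraries was most like the mean of the 9, among 11888 genes with an average log2 CPM of at least 1, were Evl (Pearson r of 0.9997), Plxnb2 (0.9996), Fcgr3 (0.9989), Cd200r1 (0.9989), Was (0.9985), Cd74 (0.9984), Csf1r (0.9983) and Itgam (0.9982). Evl, a regulator of actin filaments, was at 36.6, 11.0 and 36.7 CPM in control mice and at 5.13, 3.57 and 7.05 CPM in aPU.1KO mice. Itgam, the alpha chain of a leukocyte integrin, was at 57.0, 14.5 and 47.0 CPM in control mice and at 7.42, 5.06 and 9.94 CPM in aPU.1KO mice. Each of them repeated the low value of control mouse 2, and their log2 fold changes were between -2.86 (Cd200r1) and -1.62 (Cd74). Both follow from their choice by likeness to the 9 over the same 6 libraries.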

How the data were processed

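The authors quantified reads per transcript with Salmon (option validateMappings), summed them to genes and deposited estimated counts, which are whole numbers without normalization. GRCm38, Salmon and FastQC are named in the submitters' processing notes without versions. Symbols and coordinates are from GENCODE M21, which matched 35031 of 35122 genes, and the 91 others hold 0.0367% of counts.

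The groups were compared with edgeR 4.0.16 in R 4.3.3 (filterByExpr, TMM factors, glmQLFit, glmQLFTest, Benjamini-Hochberg adjustment over 13925 genes), with no covariate. CPM are counts per 1000000 of the TMM-scaled library, log2 CPM used a prior count of 2, and standard errors were taken from the coefficient and the F statistic. P-values for pairs of genes come from exact permutation of 3 against 3 mice, and the depth of each library, given above, sets the precision of low counts. No 2 libraries of a group were duplicates, since a chi-square of their counts was at least 19 times its degrees of freedom. Near-identical transcripts were sought with BLAST 2.17.0, and the pipeline was tested on simulated data. Motif letters were counted in RefSeq windows of 250 bases.

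The 9 genes and the lists were chosen with earlier results of these data known. Genes named are the 9, their paralogs, Spi1, the 3 lowest and 2 highest log2 fold changes of each pathway list and the 8 genes most like the mean of the 9; markers named beside them were picked to describe the lists. Some genes that this rule names are left out of the text. Alternatives were DESeq2 1.42.0, limma-voom (limma 3.58.1), RLE and upper quartile factors, at least 10 counts in every library, no filter, robust dispersion, legacy = FALSE, control library 1 thinned to 22770714 counts, and leaving out each mouse. The paper gives a higher age than the labels' 10 to 11 months.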

Additional observations from a re-analysis of the deposited data

How the results depend on the processing

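All 9 log2 fold changes stayed below 0 under 15 alternatives (135 values, 0 reversed), and 18 of these values, 9 with DESeq2 and 9 without control mouse 2, passed an adjusted p under 0.05 where the main value did not. The 9 genes called at an adjusted p under 0.05 numbered 0 in the main test, 9 with DESeq2, 0 to 9 with each mouse left out, and 0 in the other alternatives. At an unadjusted p under 0.01 they numbered 8, falling to 4 with limma-voom and running from 1 to 9 with each mouse left out. Pathway genes passing as lower numbered 47, against 11 with limma-voom and 13 to 61 with each mouse left out. Over all genes, 1367 passed at that p in either direction, against 1231 with limma-voom and 437 to 1795 with each mouse left out. Genes called over the whole table numbered 33 (25 lower, 8 higher), 5 with at least 10 counts in every library, 1833 with DESeq2 and 146 with no filter, and 0 to 1193 with each mouse left out. The highest came without control mouse 2, the lowest without control mouse 1 (1718 genes at an unadjusted p under 0.05). Why these counts moved was not tested. With 3 mice per group and as few as 14 counts for a gene in a library, differences between the 9 genes in size of effect are imprecise. No paired analysis was possible because the labels share no replicate numbers between the groups and do not say which mice came from the same litter.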

Other observations

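Lymphocyte members of the kinase families were close to the detection limit in this fraction. Lck, the Src kinase of T cells, was at 0.688, 0.131 and 0.713 CPM in control mice and at 0.152, 0.271 and 0.0473 CPM in aPU.1KO mice, and Blk, the Src kinase of B cells, was at most 0.426 CPM in any library, so that neither was tested. Tyrobp and Fcer1g, the ITAM adaptors of myeloid cells, were far more abundant, Tyrobp at 62.2, 11.7 and 67.8 CPM in control mice and at 9.29, 5.10 and 9.66 CPM in aPU.1KO mice (log2 fold change -2.57, edgeR adjusted p = 0.0868) and Fcer1g with a log2 fold change of -2.30 (edgeR adjusted p = 0.0873). These 4 genes were chosen after their values were seen. Tec was at 13.2, 2.17 and 19.2 CPM in aPU.1KO mice, against 14.1 to 21.5 CPM in control mice, so that its low mean came from aPU.1KO mouse 2.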
